A study of Homo sapiens with 8 samples.

Results

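The 10 genes described here encode 5 glutathione peroxidases (*GPX1*, *GPX2*, *GPX3*, *GPX4* and *GPX8*) and 5 other proteins that set how readily a cell undergoes ferroptosis (*AIFM2*, *DHODH*, *GCH1*, *ACSL4* and *LPCAT3*). They were listed by gene name, with no measured value as a criterion but with earlier results of these data known, and all 10 were found among the 57815 gene identifiers measured. RNA-seq of poly(A) RNA was performed in 2 established lines of lung adenocarcinoma, ABC1 and HCC4006, which the labels describe as carrying neither a *KEAP1* nor an *NRF2* mutation. In each line, cells treated for 16 h with 100 μM DEM (diethyl maleate) were compared with cells that received the vehicle DMSO. Each of the 4 groups had 2 libraries, numbered 0 and 1, which the methods call biological duplicates, so 8 libraries were analysed. DEM is an electrophile that modifies KEAP1 and thereby stabilises the transcription factor NRF2. Each condition is 1 line at 1 dose and 1 time, and in bulk RNA a change in the cells of a culture cannot be told apart from a change in RNA per cell.

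Ferroptosis is a form of cell death driven by iron-dependent peroxidation of the polyunsaturated phospholipids of membranes. GPX4 holds it back by reducing phospholipid hydroperoxides at the expense of glutathione, while AIFM2 (also called FSP1), DHODH and GCH1 act in parallel through reduced ubiquinone or tetrahydrobiopterin, which trap lipid radicals. ACSL4 and LPCAT3 act on the other side, since they place polyunsaturated fatty acids into the phospholipids that are oxidised. GPX1, GPX2, GPX3 and GPX4 are selenoproteins, with selenocysteine at the active site, whereas GPX8 carries a cysteine there. NRF2 is best known for inducing glutathione synthesis and antioxidant enzymes through the antioxidant response element.

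Of the 10 genes, 9 had a promoter in the RefSeq table used here (GRCh38.p14, from 250 bases before to 50 bases after each start), with 11 promoters in all because *GPX4* had 3 starts. The core of the antioxidant response element, written TGACNNNGC, was searched on both strands. It was found in the promoters of *GPX2* and *AIFM2* only, 2 of these 9 genes and 2 of the 11 promoters. This core was held by 13.3% of the 35116 promoters in the table, a share counted by promoter and not by gene. A second motif, TGANTCA, the core of AP-1 type sites, was found in the *AIFM2* promoter, where it overlapped the first motif, and 7.71% of all promoters held it. A match of letters does not show binding, and no binding was measured in these files. The sequences around the core of the antioxidant response element are shown for both genes that held it. They are the plus strand of GRCh37, found there by exact match of the promoter, with the motif in capitals.
AIFM2 (chr10:71892585-71892613): gggcggggcgTGACTCAGCactcgtgctg
GPX2 (chr14:65409567-65409595): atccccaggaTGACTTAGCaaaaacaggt

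Both genes lie on the minus strand. The *AIFM2* motif spanned bases -22 to -14 from the RefSeq start, inside the first exon of a longer annotated transcript of *AIFM2*, and the *GPX2* motif spanned bases -122 to -114. The 200 bases of GRCh37 around the *GPX2* motif, chr14:65409514-65409713 on the minus strand, lie upstream of *GPX2* and within introns of *CHURC1* on the opposite strand, and in them the same motif reads as its reverse complement, in capitals.
GPX2 upstream: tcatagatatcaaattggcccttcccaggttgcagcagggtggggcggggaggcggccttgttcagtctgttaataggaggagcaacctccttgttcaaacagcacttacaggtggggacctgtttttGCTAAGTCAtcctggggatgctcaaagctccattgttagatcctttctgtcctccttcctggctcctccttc

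Levels are FPKM, fragments scaled to transcript length and to the mapped fragments of the library, so they may be compared between genes. Tests were made with limma on log2(FPKM + 1), over genes whose mean reached 1 FPKM in the libraries compared, and a gene was called at a Benjamini-Hochberg adjusted p under 0.05. Fold changes are on this log2(FPKM + 1) scale, which makes the change of a gene with a low level smaller than its ratio. Library sums lay between 627085 and 737534 FPKM, and 12515 to 13573 genes per library reached 1 FPKM. The DEM check genes moved in both lines. *NQO1*, a quinone reductase, rose by 1.59 ± 0.21 (log2 fold change ± SE, adjusted p = 0.0422) in ABC1 and by 0.89 ± 0.07 (adjusted p = 0.00179) in HCC4006, *GCLM*, the modifier subunit of glutamate-cysteine ligase, by 1.61 ± 0.15 (adjusted p = 0.0221) and 2.15 ± 0.09 (adjusted p = 0.000426), and *SRXN1*, sulfiredoxin, by 2.64 ± 0.17 (adjusted p = 0.00798) and 2.70 ± 0.07 (adjusted p = 8.78e-05). The epithelial markers *EPCAM*, *CDH1*, *KRT8*, *KRT18* and *KRT19* were at 92.4 FPKM or more in every library. The lung lineage markers *NKX2-1* and *NAPSA* were at 42.4 to 47.1 FPKM and 12.9 to 16.0 FPKM in HCC4006 but below 1 FPKM in every ABC1 library, and *SFTPB* was at most 0.277 FPKM in any library. *KRT7* was at 10.4 to 25.9 FPKM in ABC1 and at 1460 to 2106 FPKM in HCC4006. *VIM* was at 227 to 283 FPKM in HCC4006 and at most 0.909 FPKM in ABC1, and *CD68* at 89.3 to 102 FPKM in HCC4006 and 1.55 to 2.54 FPKM in ABC1. The leukocyte markers *PTPRC*, *CD3E* and *CD14* were at most 0.671 FPKM, and the endothelial markers *CDH5*, *VWF* and *KDR* at most 0.387 FPKM. Of the fibroblast markers, *COL1A1* was at 3.58 to 7.64 FPKM, *CDH2* at most 8.49 FPKM, *COL1A2* at most 1.48 FPKM, and *DCN* and *LUM* at most 0.615 FPKM. The lines thus differ widely in lineage markers, and the part of this in the line differences below was not tested.

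The first comparison asked how the untreated lines differ in these genes. All 10 were called between ABC1 and HCC4006 with vehicle, 3 higher and 7 lower in ABC1, in a comparison in which 30.4% of the 13747 genes tested were called higher in ABC1 and 37.3% lower. Most genes thus passed, so the calls alone say little about these 10, and the sizes are given instead. *GPX2* and *GPX3* entered this comparison only through the line where they were high. *ACSL4*, *GPX3* and *AIFM2* were far lower in ABC1, while *GPX4* differed by a ratio of means of 1.31.

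*GPX4*, the phospholipid hydroperoxidase, was at 156 and 166 FPKM in ABC1 vehicle libraries and at 127 and 118 FPKM in HCC4006. It had the highest mean of the 10 genes in both lines. The difference was 0.39 ± 0.09 on the log2 scale (adjusted p = 0.0139), and it was not called when either HCC4006 vehicle library was left out (0.44, adjusted p = 0.0809, without replicate 0 and 0.34, adjusted p = 0.122, without replicate 1). *GPX1*, the cytosolic hydrogen peroxide-reducing enzyme, was at 56.9 and 57.9 FPKM in ABC1 and at 83.4 and 82.4 FPKM in HCC4006. The level was 1.44 times higher in HCC4006 (log2 difference, ABC1 minus HCC4006, -0.52 ± 0.08, adjusted p = 0.00315). This difference stayed between -0.54 and -0.51 with 1 library left out, but it was not called without HCC4006 vehicle replicate 0.

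*GPX3*, the secreted plasma peroxidase, was at 0.122 FPKM or below in both ABC1 vehicle libraries and at 44.9 and 39.9 FPKM in HCC4006. It passed the minimum level in this comparison through HCC4006 alone, so its call here is no independent support of the difference. The base mean in the authors' deposited table, their mean over the line's libraries of counts scaled to a common depth, was 0.259 for *GPX3* in ABC1 and 1046 in HCC4006. *GPX2*, the peroxidase of gastrointestinal epithelium, had the opposite order, with 3.25 and 3.61 FPKM in ABC1 and 0.371 and 0.403 FPKM in HCC4006 (1.67 ± 0.14). It passed the minimum level through ABC1 alone, so its limma p (adjusted p = 0.000282) is no independent support of the difference. With a pseudocount of 0.1 the difference of *GPX2* was 2.86, and with no minimum level its adjusted p was 0.00853. *GPX8*, a peroxidase of the endoplasmic reticulum membrane, was at 15.2 and 21.8 FPKM in ABC1 and 70.6 and 67.1 FPKM in HCC4006, 3.72 times the ABC1 mean. *GPX4* and then *GPX1* were the highest of the 5 peroxidases in both lines, and the lowest was *GPX3* in ABC1 and *GPX2* in HCC4006.

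Among the genes of the radical-trapping arms, *AIFM2*, which reduces ubiquinone at the plasma membrane, was at 2.00 and 1.60 FPKM in ABC1 and at 12.0 and 10.2 FPKM in HCC4006. Its mean was 6.19 times higher in HCC4006 (-2.12 ± 0.15, adjusted p = 0.000166). *GCH1*, the first enzyme of tetrahydrobiopterin synthesis, was at 4.43 and 5.18 FPKM in ABC1 and at 15.3 and 14.8 FPKM in HCC4006, a mean 3.13 times higher (-1.47 ± 0.12, adjusted p = 0.000275). *DHODH*, the mitochondrial enzyme of pyrimidine synthesis that passes electrons to ubiquinone, differed least of these, with 6.34 and 5.43 FPKM against 8.53 and 8.43 FPKM (-0.46 ± 0.12, adjusted p = 0.0191). The *DHODH* call was lost without ABC1 vehicle replicate 1 (-0.37, adjusted p = 0.0653), HCC4006 vehicle replicate 0 (-0.46, adjusted p = 0.135) or HCC4006 vehicle replicate 1 (-0.47, adjusted p = 0.126).

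Both genes that load membranes with polyunsaturated fatty acids differed strongly, and in opposite directions. *ACSL4*, which activates arachidonic and adrenic acid, was at 6.71 and 7.07 FPKM in ABC1 and at 120 and 119 FPKM in HCC4006, 17.4 times the ABC1 mean (-3.94 ± 0.09, adjusted p = 8.02e-06). In HCC4006 its libraries lay within the spread of *GPX4*. *LPCAT3*, which transfers such fatty acids to lysophospholipids, was at 46.3 and 33.0 FPKM in ABC1 and at 10.8 and 9.66 FPKM in HCC4006, 3.88 times higher in ABC1 (1.84 ± 0.18, adjusted p = 0.000538). The *ACSL4* libraries within a line lay close together, while the ABC1 libraries of *LPCAT3* were far apart.

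**Figure D1:**
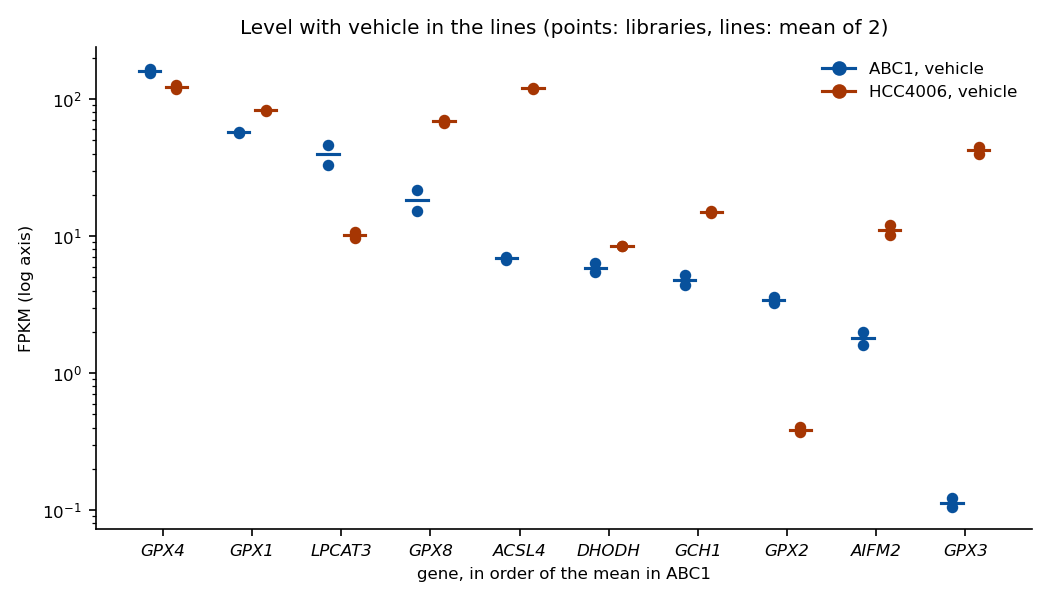
FPKM of the 10 genes on a log axis in the vehicle libraries of ABC1 (blue) and HCC4006 (orange); points are libraries and lines the mean of 2, with genes in the order of their ABC1 mean. *ACSL4* and *GPX3* stand furthest apart, with HCC4006 above ABC1, and *LPCAT3*, *GPX2* and *GPX4* are the genes with ABC1 above HCC4006.

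The second comparison asked how DEM changed these genes within each line. In ABC1, 9 of the 10 genes passed the minimum level. *GPX2* was called higher and none was called lower by limma, where 0.768% of the 12635 genes tested were called higher with DEM and 0.435% lower. Without adjustment, 2 of the 9 had a p under 0.05, *GPX2* and *GPX1*, beside 2771 of the 12635 genes tested. The log2 fold change was below 0 for 8 of the 9 genes and above 0 for 1, where 47.7% of all genes tested were above 0. The median of the 9 was -0.30 beside -0.02 over all genes tested. In HCC4006, all 10 genes were tested, *GPX2* having passed only through its DEM libraries, and 3 were called higher (*GPX2*, *GPX3* and *AIFM2*) and 2 lower (*GPX1* and *DHODH*). There 8.45% of the 13542 genes tested were called higher and 10.7% lower, and the median of the 10 genes was -0.05 beside -0.03 over all genes.

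**Figure D2:**
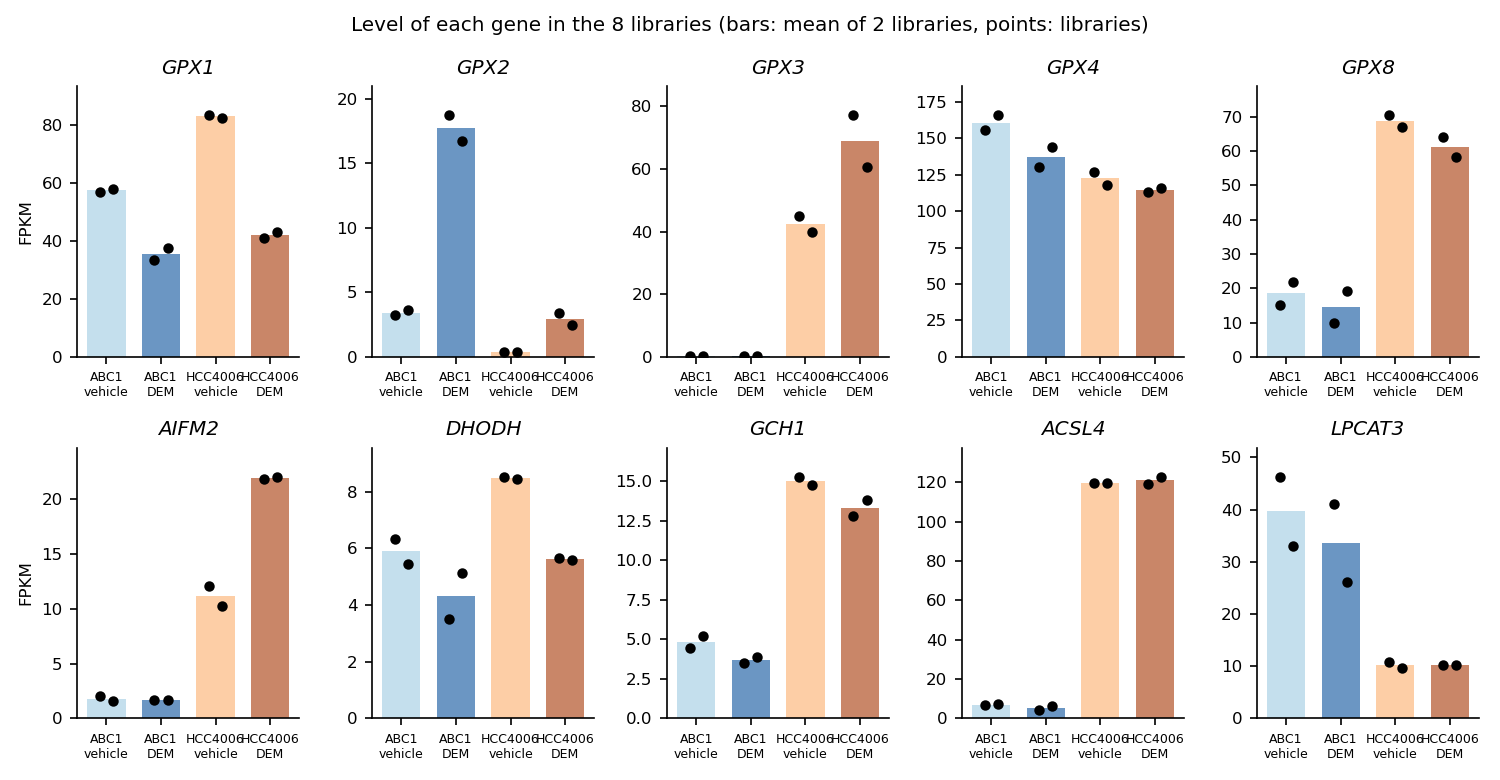
FPKM of each gene in the 8 libraries, 1 panel per gene with its own axis from 0; bars are the mean of 2 libraries and points the libraries, for vehicle and DEM in ABC1 (blue) and HCC4006 (orange). *GPX2* is higher and *GPX1* lower with DEM in both lines, *AIFM2* is higher with DEM in HCC4006, and *GPX4* is slightly lower with DEM in both lines without being called.

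*GPX2* had the largest increase of the 10 genes in both lines. In ABC1 it was at 3.25 and 3.61 FPKM with vehicle and at 18.7 and 16.7 FPKM with DEM, a ratio of means of 5.17. Its log2 fold change was 2.08 ± 0.14 (adjusted p = 0.00966), which ranked 46 by size among the 12635 genes tested. The fold change stayed between 2.00 and 2.16 when 1 library was left out, although the call was lost without ABC1 vehicle replicate 0 (2.02, adjusted p = 0.0877) or replicate 1 (2.14, adjusted p = 0.0781). In HCC4006 it was at 0.371 and 0.403 FPKM with vehicle and at 3.40 and 2.43 FPKM with DEM. The change was 1.49 ± 0.20 on the log2(FPKM + 1) scale (adjusted p = 0.00812). Since *GPX2* could be tested in HCC4006 only because its DEM libraries were high, this p is no independent support of the increase, and with no minimum level the adjusted p was 0.099. The size depended on the pseudocount, since with 0.1 in place of 1 the change was 2.61 in HCC4006 and 2.34 in ABC1. *GPX2* in HCC4006 had a base mean of 16.9 in the authors' deposited table, the lowest of the 10 genes in that line. The DEM libraries of HCC4006 thus stood near the 3.25 and 3.61 FPKM that ABC1 had with vehicle.

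*GPX1* was the member with the largest decrease. In HCC4006 it was at 83.4 and 82.4 FPKM with vehicle and at 40.8 and 43.1 FPKM with DEM, a ratio of 0.506. It fell by 0.97 on the log2 scale (SE 0.07, adjusted p = 0.00163), and it was called in all 12 alternatives to the processing. In ABC1 it was at 56.9 and 57.9 FPKM with vehicle and at 33.4 and 37.5 FPKM with DEM, a ratio of 0.618. The change of -0.68 ± 0.12 had an adjusted p of 0.0671 and was not called. It passed in 2 of the 12 alternatives to the processing. The first was a model of all 8 libraries (adjusted p = 0.00622), which called 1567 genes in ABC1 in place of 152. The second was a block for the replicate number, described in the closing section. Reads of *GPX1* may be shared with its processed pseudogene *GPX1P1*, which was at 1.48 and 1.84 FPKM with vehicle and 0.381 and 0.137 FPKM with DEM in ABC1, and at 0.560 FPKM or below in HCC4006.

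*GPX3* reached the minimum level in HCC4006 alone. It was at 44.9 and 39.9 FPKM with vehicle and at 77.2 and 60.7 FPKM with DEM, a ratio of 1.63. The rise of 0.68 ± 0.13 had an adjusted p of 0.0212. This call was lost without HCC4006 DEM replicate 0, the higher of the DEM libraries (0.51, adjusted p = 0.0647), and without HCC4006 vehicle replicate 1 (0.60, adjusted p = 0.0934). In ABC1 the gene was at 0.122 FPKM or below with vehicle and at 0.283 and 0.238 FPKM with DEM, under the minimum for testing.

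*GPX4* was not called in either line. In ABC1 it was at 156 and 166 FPKM with vehicle and at 130 and 144 FPKM with DEM (-0.23, 95% interval -0.54 to 0.09). In HCC4006 it was at 127 and 118 FPKM with vehicle and at 113 and 116 FPKM with DEM (-0.10, 95% interval -0.27 to 0.07). The vehicle libraries were above the DEM libraries in both lines, but by less than the test could separate from the spread. *GPX8* was not called either, with 15.2 and 21.8 FPKM against 9.93 and 19.2 FPKM in ABC1, where the groups overlapped and the interval of the change was wide (-1.16 to 0.42), and 70.6 and 67.1 FPKM against 64.3 and 58.2 FPKM in HCC4006 (-0.17, 95% interval -0.36 to 0.03). Summed over the 5 peroxidases, the level was 231 and 249 FPKM with vehicle and 193 and 218 FPKM with DEM in ABC1, and 326 and 308 FPKM against 299 and 280 FPKM in HCC4006. *GPX7*, a further member of the family in the endoplasmic reticulum, was listed at 0 in ABC1 and was at 3.48 and 3.08 FPKM with vehicle and 2.04 and 1.75 FPKM with DEM in HCC4006 (-0.56 ± 0.15, adjusted p = 0.0537).

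Among the radical-trapping genes, *AIFM2* rose in HCC4006. It was at 12.0 and 10.2 FPKM with vehicle and at 21.8 and 22.1 FPKM with DEM, a ratio of 1.97. The change was 0.92 ± 0.11 (adjusted p = 0.00567) and lay between 0.82 and 1.03 when 1 library was left out, with the call kept in each of these 4 fits. In ABC1 the same gene was at 2.00 and 1.60 FPKM with vehicle and at 1.66 and 1.63 FPKM with DEM, the DEM libraries lying between the vehicle libraries (-0.08, 95% interval -0.58 to 0.43). *DHODH* fell in HCC4006, from 8.53 and 8.43 FPKM to 5.65 and 5.58 FPKM (-0.52 ± 0.11, adjusted p = 0.0264). Leaving out any 1 of the 4 libraries kept the change between -0.53 and -0.51 and ended the call, with adjusted p of 0.117 without vehicle replicate 0, 0.117 without vehicle replicate 1, 0.0945 without DEM replicate 0 and 0.0885 without DEM replicate 1. In ABC1 *DHODH* was at 6.34 and 5.43 FPKM with vehicle and at 3.50 and 5.14 FPKM with DEM, and was not called (-0.39, 95% interval -0.89 to 0.12). *GCH1* was not called in either line. It was at 4.43 and 5.18 FPKM with vehicle and at 3.49 and 3.90 FPKM with DEM in ABC1 (-0.30, 95% interval -0.72 to 0.11), and at 15.3 and 14.8 FPKM against 12.8 and 13.9 FPKM in HCC4006 (-0.16, 95% interval -0.39 to 0.07).

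Neither gene of phospholipid loading was called after DEM. *ACSL4* in HCC4006 was at 120 and 119 FPKM with vehicle and at 119 and 123 FPKM with DEM, so that the groups overlapped and the interval of the change was narrow (0.02, 95% interval -0.14 to 0.17). In ABC1 it was at 6.71 and 7.07 FPKM with vehicle and at 4.30 and 6.10 FPKM with DEM (-0.36, 95% interval -0.83 to 0.10). *LPCAT3* was at 46.3 and 33.0 FPKM against 41.2 and 26.2 FPKM in ABC1, where the 2 libraries of each group differed more than the groups did (-0.24, 95% interval -0.89 to 0.40), and at 10.8 and 9.66 FPKM against 10.1 and 10.2 FPKM in HCC4006 (-0.00, 95% interval -0.26 to 0.25).

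**Figure D3:**
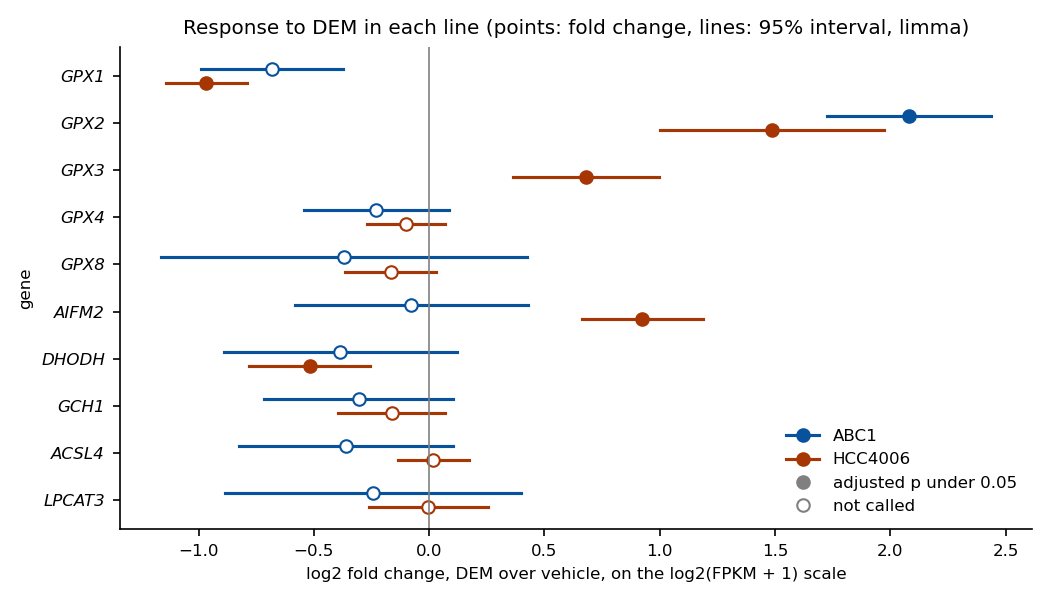
Log2 fold change of DEM over vehicle on the log2(FPKM + 1) scale for each gene in ABC1 (blue) and HCC4006 (orange), with 95% intervals from limma; filled points had an adjusted p under 0.05. The intervals of *GPX2* and *GPX1* each lie on the same side of 0 in both lines, although *GPX1* was not called in ABC1. Those of *AIFM2* and *DHODH* hold 0 in ABC1 only, and *GPX3* was tested in HCC4006 only.

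Whether a gene responded differently in the lines was tested as the response in HCC4006 minus that in ABC1 over all 8 libraries. None of the 10 genes was called by limma, where 0.307% of the 13682 genes tested were called with a higher response in HCC4006 and 0.329% with a lower one. Before adjustment, 3 of the 10 had a p under 0.05, *AIFM2*, *GPX2* and *GPX3*, of which *GPX3* entered this test through HCC4006 alone. Over all 13682 genes tested, 2068 had an unadjusted p under 0.05. The difference was 1.0 ± 0.18 for *AIFM2* (adjusted p = 0.0672), which was above 0 and not called in all 15 alternatives, with adjusted p between 0.0557 and 0.248. For *GPX2* it was -0.59 ± 0.21 (adjusted p = 0.251), and with a pseudocount of 0.1 it became 0.28, so the order of the *GPX2* responses depends on the pseudocount. *GPX3* had 0.50 ± 0.20 (adjusted p = 0.288) and -0.06 with that pseudocount. The other 7 genes lay between -0.28 and 0.38. A call in HCC4006 without one in ABC1, as for *AIFM2*, is therefore not shown to be a difference between the lines at this threshold.

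The genes around these pathways were read from lists fixed by function. Of 8 genes of glutathione supply, 6 were called higher and none lower in each line, and the list's median was 1.41 in ABC1 and 1.21 in HCC4006. The largest in ABC1 was *GCLC*, the catalytic subunit of glutamate-cysteine ligase (3.21 ± 0.21, adjusted p = 0.00798), and the smallest called was *SLC3A2*, the heavy chain of the cystine transporter (0.90 ± 0.12, adjusted p = 0.0431). In HCC4006 the largest was *SLC7A11*, the cystine-transporting chain (2.76 ± 0.09, adjusted p = 0.000127), and the smallest called was *CHAC1*, which degrades glutathione (0.85 ± 0.13, adjusted p = 0.0116). *GSS*, glutathione synthetase, and *GGT1*, which breaks down glutathione outside the cell, were the genes of the list not called in either line, and were named after their values were seen.

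Of the other selenoproteins, 16 were tested in each line, with 1 called higher in ABC1, and 3 higher and 3 lower in HCC4006. *TXNRD1*, thioredoxin reductase, was the gene called in both lines, from 161 and 196 FPKM to 614 and 642 FPKM in ABC1 (1.81 ± 0.15, adjusted p = 0.0183) and from 167 and 174 FPKM to 865 and 943 FPKM in HCC4006 (2.40 ± 0.07, adjusted p = 8.78e-05). *DIO2*, a deiodinase of thyroid hormone, had the largest decrease of the list in HCC4006 (-0.74 ± 0.14, adjusted p = 0.0201). Its decrease was also the largest of the list in ABC1, where it was not called (-0.79). There it was at 3.69 and 3.23 FPKM with vehicle and at 1.55 and 1.60 FPKM with DEM. The list's median was -0.01 in ABC1, with 8 of the 16 genes below 0, and -0.12 in HCC4006, with 11 below 0. Among the genes of selenocysteine insertion and selenium uptake, 1 of 8 was called in ABC1 and 1 of 9 in HCC4006, in both lines *LRP8*, the receptor for selenoprotein P (1.04 ± 0.13, adjusted p = 0.0408, and 0.85 ± 0.07, adjusted p = 0.00218).

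Genes of tetrahydrobiopterin and ubiquinone had 1 call higher of 15 tested in ABC1, *NQO1*, and 2 higher and 5 lower of 16 in HCC4006. There *NQO1* was the largest and *GCHFR*, the feedback regulator of GCH1, the smallest, with 10.5 and 7.90 FPKM against 5.52 and 4.20 FPKM (-0.80 ± 0.18, adjusted p = 0.0327). Membrane lipid remodelling had no call among 16 genes in ABC1 by limma. Of these, 3 had an unadjusted p under 0.05, beside 2771 of all 12635 genes tested. In HCC4006 the list had 1 call among 18, *ACSL1*, another long-chain acyl-CoA synthetase (0.37 ± 0.10, adjusted p = 0.0495). The lipid peroxidation enzymes had no call among 4 genes in ABC1 by limma, with no unadjusted p under 0.05, and 1 among 5 in HCC4006, *ALOXE3*, a lipoxygenase family member best known from skin (0.51 ± 0.12, adjusted p = 0.0362). Of 8 genes of iron handling, 1 was called higher in ABC1, *HMOX1*, which releases iron from haem (3.19 ± 0.13, adjusted p = 0.00428), and 3 were called higher in HCC4006, from *FTH1*, the ferritin heavy chain (0.98 ± 0.10, adjusted p = 0.00373), to *HMOX1* (3.09 ± 0.09, adjusted p = 8.78e-05).

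**Figure D4:**
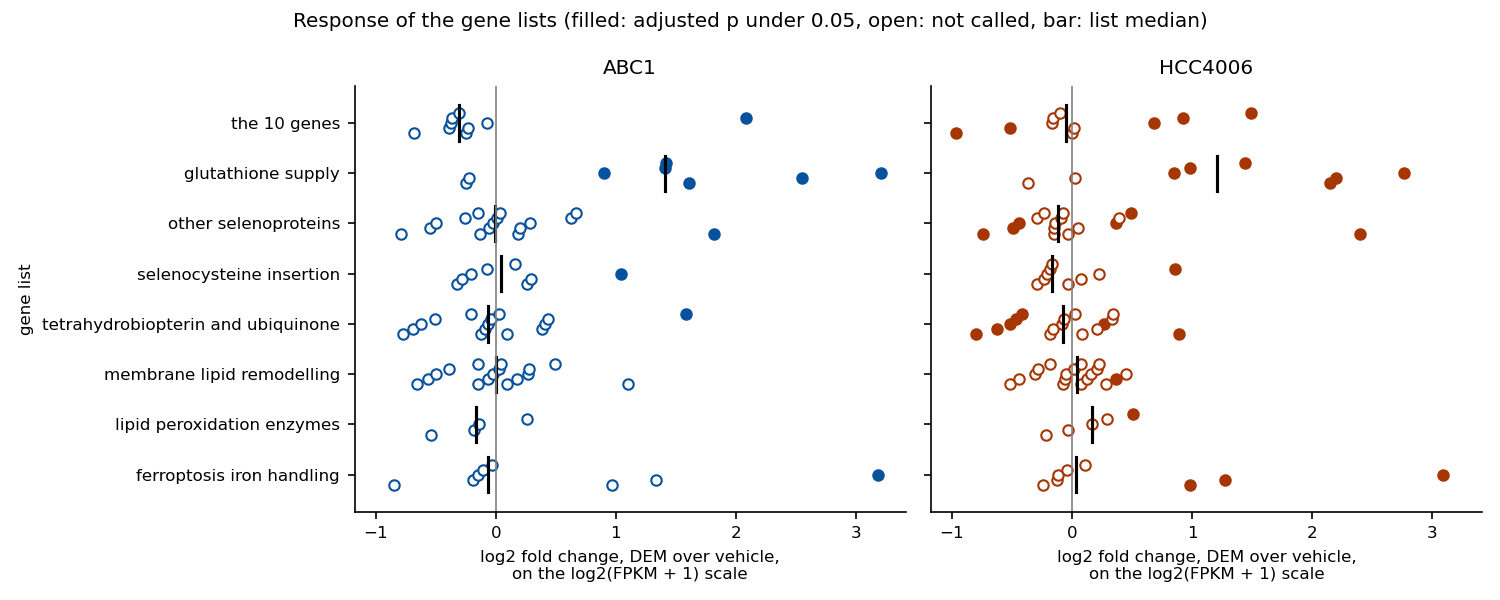
Log2 fold change of DEM over vehicle on the log2(FPKM + 1) scale for every tested gene of each list in ABC1 (left) and HCC4006 (right); filled points had an adjusted p under 0.05, open points did not, and the black bar is the list's median. Glutathione supply has 6 filled points to the right of 0 in each line. In the top row, 8 of the 9 tested genes lie below 0 in ABC1 and 6 of the 10 in HCC4006.

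The genes whose log2(FPKM + 1) was most like that of *GPX2* over the 8 libraries, among 13682 genes, were *B4GALNT1*, a ganglioside-synthesising enzyme (Pearson's r 0.993), *NIBAN1* (0.993) and *CEBPB*, a transcription factor (0.991). These 8 points fall into 4 groups of 2 that share line and treatment, so the likeness is a description of these libraries.

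By the GENCODE annotation on GRCh37, the 2 genes with the largest increases in HCC4006 lie at chr14:65405870-65409464 (*GPX2*) and chr10:71857979-71892690 (*AIFM2*), and *GPX1*, with the largest decrease, at chr3:49394607-49396038, all on the minus strand. *GPX1* overlaps, over nearly its whole length, a longer protein-coding gene annotated on the same strand, so strand does not separate their reads. *ACSL4* also overlaps a short protein-coding gene on its own strand, where strand does not separate reads either, and a pseudogene on the opposite strand. *GCH1* overlaps short RNA genes and a pseudogene on its own or the opposite strand. *GPX2*, *GPX8*, *AIFM2* and *LPCAT3* overlap protein-coding genes on the opposite strand. The library kit keeps the strand, but whether the FPKM estimation used it is not given in the sources used here.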

How the data were processed

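The authors deposited 1 FPKM value per gene and library, on hg19. The paper's methods name TopHat and Cufflinks, while the submitters' processing notes list cutadapt 1.15, STAR 2.5.3a and Cuffnorm, so the aligner is not settled by the sources used here. For each line there is also a table of the authors' own test of DEM, of which the fold changes and p-values were not used. Its base mean, used here as a signal of depth, was made by the authors as the mean of depth-scaled counts over the line's libraries, and its sum over genes was 13786938 for ABC1 and 13957320 for HCC4006. Read counts per library were not analysed here, so no counting interval is given.

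FPKM + 1 was log2 transformed and fitted with limma 3.58.1 in R 4.3.3 (eBayes with a mean-variance trend, no covariate), within each line, over all 8 libraries for the line difference, and between the vehicle groups, over genes whose mean reached 1 FPKM. The code was tested on simulated data. Of 127 listed genes, 125 were matched by symbol. *NCOA4* and *PECAM1* were not matched, and 1 marker is not reported here. The members and lists were chosen with earlier results of these data known. Genes outside the 10 are named where they had the largest or smallest called change of their list in a line, were selenoproteins called in both lines, were DEM check genes or followed *GPX2* most closely. Beyond this rule, the cell type markers and *GPX7* were given as listed genes, *GPX1P1* for its likeness to *GPX1*, and *GSS* and *GGT1* after their values were seen.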

Additional observations from a re-analysis of the deposited data

How the results depend on the processing

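Of the values of the 10 genes under the alternatives tried, 470 stayed on the same side of the threshold, 22 lost their call and 2 gained one, and no called value changed direction. In ABC1, the 152 genes called became 0 with no minimum level, 231 with a minimum of 5 FPKM, 33 without the mean-variance trend, 251 with median-of-ratios scaling, 1567 in 1 model of all 8 libraries and 18 to 69 with 1 library left out. *GPX2* was the 1 gene of the 10 called higher, and 0 were with no minimum and 0 to 1 with 1 library left out. The 0 called lower became 1, *GPX1*, in the model of 8 libraries. In HCC4006, the 2591 genes called became 370 with no minimum and 634 to 1028 with 1 library left out. The 3 of the 10 called higher became 0 with no minimum, which tests 30580 genes. They became 2 with a minimum of 5 FPKM, *AIFM2* and *GPX3*, since *GPX2* fell below that minimum. With 1 library left out, the change stayed between 0.82 and 1.03 for *AIFM2* and between 1.31 and 1.67 for *GPX2*. *GPX2* passed the minimum of 1 FPKM only through its DEM libraries, so its calls in HCC4006 are no independent support of the increase. The 2 called lower became 1 with no minimum, 1 in the model of 8 libraries and 1 with any library left out, *GPX1* remaining. *GPX3* also lost its call without the trend (adjusted p = 0.0511). For the line difference, the 87 genes called became 20 with a pseudocount of 0.1, 51 with 0.5, 403 with no minimum and 4 to 41 with 1 library left out. Between the lines with vehicle, the 9305 called became 5572 to 9005 with 1 library left out. The cause of these moves was not tested.

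With the replicate number as a block, 2348 genes were called in ABC1, of the 10 genes *GPX2* higher and 1, *GPX1*, lower (adjusted p = 0.00579), and 3 for the line difference. Deviations of same-numbered libraries correlated at 0.26 in ABC1, 0.05 in HCC4006 and 0.04 between the vehicle groups. With 2 pairs this does not establish that the numbers pair the libraries.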
